A study of Mus musculus with 9 samples.

Results

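Ketamine is thought to act as a fast antidepressant in part through brain-derived neurotrophic factor and the protein synthesis machinery that its receptor controls. Transcripts of 10 genes proposed as mediators of that action were followed in mouse anterior cingulate cortex, a frontal midline region linked to mood. All mice were of the inbred strain C57BL/6J. The 10 genes were picked by gene symbol, with earlier results of these data known: Bdnf, Ntrk2, Akt1, Gsk3b, Mtor, Rps6kb1, Eif4ebp1, Eif4ebp2, Eef2k and Eef2. A probe set with 1 gene symbol named 9 of the 10, each gene through a single probe set, among 22180 genes measured in all. Rps6kb1, which encodes the S6 kinase, had none and was not analysed here.

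The 9 Affymetrix arrays formed 3 groups of 3 mice, called biological replicates in the labels. Control mice were given saline into the peritoneum at ZT5, where ZT counts hours from lights on. Mice labelled KT were given 3 mg/kg ketamine, a blocker of NMDA-type glutamate receptors, by the same route at ZT5. Mice labelled SD were kept awake for 12 h, from ZT0 to ZT12, by a slowly turning bar, and no injection is recorded for this group. Every mouse was sampled at ZT13, so ketamine and saline mice were sampled well after the injection, and sleep-deprived mice after an interval without the bar. Against either injected group, wakefulness, the injection and that last interval cannot be told apart. Between ketamine and sleep-deprived mice the drug itself is a further difference that cannot be separated from these. Age and sex of the mice were not used here. No transgene was involved, and the tissue was a whole dissected region, in which fewer cells of a type and less RNA per cell cannot be told apart.

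The secreted neurotrophin BDNF binds the receptor tyrosine kinase TrkB, the product of Ntrk2. The activated receptor recruits PI3 kinase, which switches on the kinase AKT, and AKT in turn inhibits the kinase GSK3 beta and relieves a brake on the mTOR kinase complex. Active mTOR phosphorylates S6 kinase and the eIF4E-binding proteins, which then release the cap-binding factor eIF4E and allow translation to start. In the other branch, eEF2 kinase, a calcium and calmodulin dependent enzyme, phosphorylates elongation factor eEF2 and slows peptide elongation. Most of this control works through phosphorylation of proteins, which these arrays do not measure. They report transcript levels only.

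Each gene was read by a single probe set, so transcripts that begin at different starts were not separated. This matters most for Bdnf, whose several promoters splice to one coding exon, and some of which are known to respond to neuronal activity. RefSeq windows on build GRCm38.p6, from 250 bases before to 50 after an annotated start, were found for 9 of the 10 genes, 18 windows in all, of which 7 belong to Bdnf. Eif4ebp1 was not among them. The windows were searched on both strands for the cyclic AMP response element TGACGTCA, for its half-site TGACG, which the full element contains and which reads CGTCA on the other strand, and for the E-box CACGTG that clock and other basic helix-loop-helix factors bind. The half-site was found in 4 of the 18 windows (22.2%) against 20.8% of all 32851 windows in the table. The full element was present only in the window of Eef2, against 1.79% of all windows, and the E-box in the window of Eef2 and in 1 of the 3 windows of Eef2k, against 7.15%. Only 1 of the 7 Bdnf windows held the half-site, with its first base at -35 from the annotated start. The 4 windows with a half-site are shown 5′ to 3′ on the strand of the gene, with half-sites and E-boxes in capitals. They were picked for the half-site and not for the level of the gene. Group means on the log2 scale spread by 0.52 for Bdnf, 0.12 for Eif4ebp2, 0.06 for Eef2k and 0.02 for Eef2.
Bdnf, chr2:109692186-109692485, plus strand: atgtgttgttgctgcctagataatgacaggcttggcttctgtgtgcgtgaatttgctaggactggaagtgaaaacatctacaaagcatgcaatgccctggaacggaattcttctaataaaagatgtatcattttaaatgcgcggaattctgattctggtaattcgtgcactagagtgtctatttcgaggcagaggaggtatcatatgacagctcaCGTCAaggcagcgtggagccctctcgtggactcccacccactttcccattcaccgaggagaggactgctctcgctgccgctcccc
Eef2, chr10:81176381-81176680, plus strand: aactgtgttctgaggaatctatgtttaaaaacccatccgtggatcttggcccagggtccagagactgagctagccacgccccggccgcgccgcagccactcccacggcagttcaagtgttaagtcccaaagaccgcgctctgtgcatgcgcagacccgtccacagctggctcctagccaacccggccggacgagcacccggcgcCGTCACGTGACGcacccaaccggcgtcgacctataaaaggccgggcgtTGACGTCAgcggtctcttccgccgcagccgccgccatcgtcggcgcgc
Eef2k, chr7:120842581-120842880, plus strand: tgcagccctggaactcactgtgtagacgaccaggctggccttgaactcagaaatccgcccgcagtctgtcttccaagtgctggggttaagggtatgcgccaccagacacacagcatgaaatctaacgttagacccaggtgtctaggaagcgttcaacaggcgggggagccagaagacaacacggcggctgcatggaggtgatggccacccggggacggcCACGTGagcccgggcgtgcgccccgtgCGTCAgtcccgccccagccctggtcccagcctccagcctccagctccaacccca
Eif4ebp2, chr10:61452620-61452919, minus strand: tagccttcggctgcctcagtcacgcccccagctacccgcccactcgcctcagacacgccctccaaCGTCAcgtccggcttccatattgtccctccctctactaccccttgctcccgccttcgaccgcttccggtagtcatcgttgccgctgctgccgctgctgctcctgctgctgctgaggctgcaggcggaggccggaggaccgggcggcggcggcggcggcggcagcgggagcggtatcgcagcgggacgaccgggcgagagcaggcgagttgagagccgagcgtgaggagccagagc
A match describes the letters of the window and nothing more. Eef2 held every motif searched.

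Array medians lay between 97.7 and 106.2, and arrays of a group correlated at 0.986 to 0.995 across genes. All 5 neuronal markers were measured, with summed intensities of 19573 to 21785 over the 9 arrays, and the 4 measured excitatory neuron markers summed to between 9573 and 10041. Markers of choroid plexus and ependyma, which are not cortical tissue, summed to 9314 on saline array 2, 2040.3 on saline array 1, and 427 to 892 on the other 7. Their part in the differences from saline was not tested. Marker sums of astrocytes (3730.4 to 4571), oligodendrocytes (3045 to 5412) and their precursors (987 to 1194), microglia (1450.3 to 1625) and mural cells (2244 to 2552) overlapped between all groups, as did those of the 2 measured striatal markers (180.2 to 238), and none of 4 blood markers was measured. Group differences below are differences of mean log2(intensity + 16) ± SE from limma, with n = 3 arrays per group and Benjamini-Hochberg adjustment over all 22180 genes. Intensities of different probe sets are not comparable with each other. The p-values set each difference against the spread between mice within groups, which limma moderates with that of all genes.

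None of the 9 genes passed the test in any of the 3 comparisons. limma called 0.0% of all genes at adjusted p under 0.05 in each of them. At an unadjusted p under 0.05, 1 of the 9 was counted between ketamine and saline, where 4.57% of all genes were (1013). Between sleep deprivation and saline the count was 0, against 3.52% of all genes (781). Between ketamine and sleep deprivation it was 1, against 9.48% (2103). The gene counted both times was Bdnf, with the lower mean after ketamine, where 2.35% of all genes were lower at that p than after saline and 4.38% lower than after sleep deprivation. The other 8 genes had no unadjusted p below 0.0802 in any comparison.

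**Figure D1:**
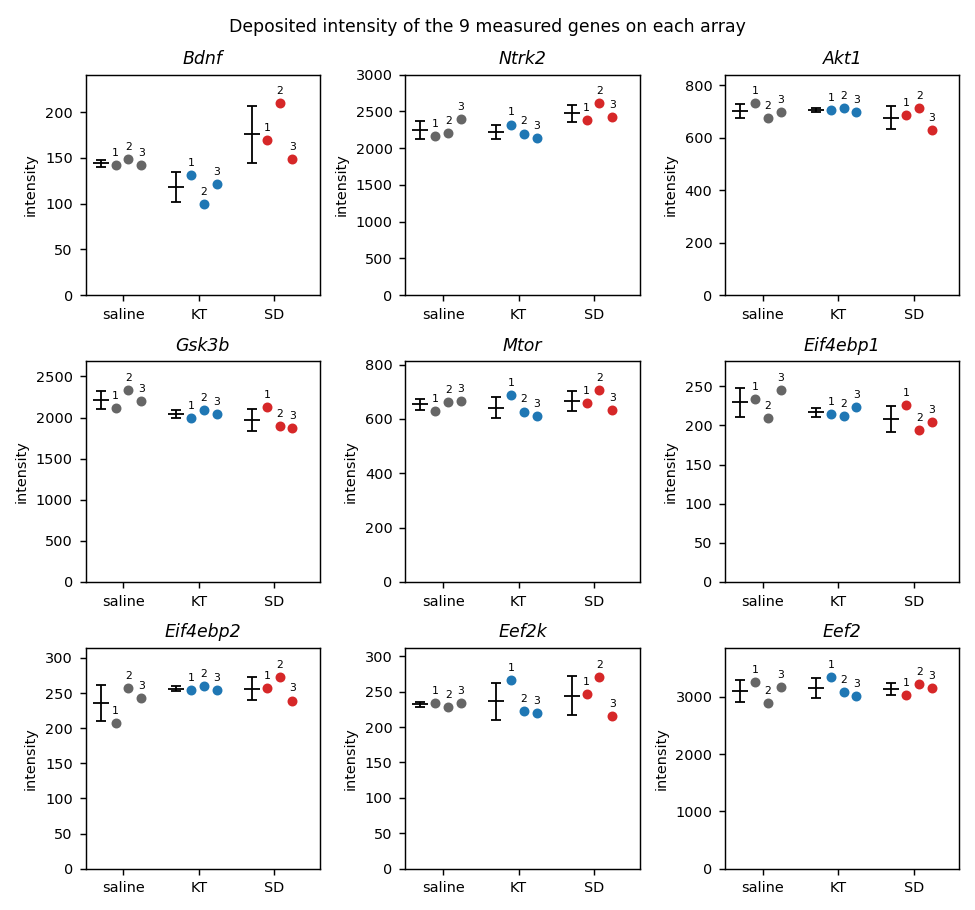
Deposited probe set intensity (y axis, linear scale from 0) of the 9 measured genes in the saline, KT (ketamine) and SD (sleep deprivation) groups, with a dot per array numbered by replicate and, to its left, the group mean ± SD (n = 3). Bdnf lies between 99.7 and 132 in ketamine arrays, 142 and 149 in saline arrays and 149 and 209.7 in sleep-deprived arrays, while the other genes stay close to 1 level.

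Bdnf, the ligand (probe set 17374077, gene at chr2:109674700-109727043 on GRCm38.p6, the build of all positions given here), had its lowest levels after ketamine and its highest after sleep deprivation. Positions beside a probe set, here and below, are those of the RefSeq gene and not of the probe set. The intensities of Bdnf were 142, 149 and 142 on the saline arrays. Ketamine arrays read 132, 99.7 and 122. Sleep-deprived arrays read 169, 209.7 and 149. Each ketamine array was below every saline array, as for 7.89% of all genes, and below every sleep-deprived array, as for 5.54%. Saline and sleep-deprived arrays overlapped, since sleep-deprived array 3 (148.7) lay just under saline array 2 (148.8).

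Between ketamine and saline, Bdnf was at -0.27 ± 0.12, with a 95% interval from -0.53 to -0.0049 and an adjusted p of 0.87 in limma. Between sleep deprivation and saline it was at 0.25 ± 0.12 (interval -0.018 to 0.51, adjusted p 1.0 in limma). Ketamine set directly against sleep deprivation gave -0.52 ± 0.12 (interval -0.78 to -0.25). Its unadjusted p in limma was 0.000949, number 62 in order of p among 22180 genes, and its adjusted p was 0.337. Each pair of these comparisons shares 3 arrays, so they are not separate evidence.

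Single arrays carried part of these values. Without ketamine array 2 the difference of Bdnf from saline was -0.17 (unadjusted p 0.223 in limma), and without sleep-deprived array 2 its mean exceeded saline by 0.12 (unadjusted p 0.301 in limma). The direct difference stayed between -0.62 and -0.39 whichever array of the 2 groups was left out, and its adjusted p fell to 0.0413 in limma without sleep-deprived array 3. With array weights in limma, which gave ketamine array 2 a weight of 7.92 and sleep-deprived array 2 a weight of 0.348, Bdnf passed against saline (-0.43, adjusted p 0.0157) and against sleep deprivation (-0.66, adjusted p 0.0413). Over the 17 alternatives its adjusted p ranged from 0.0157 to 1.0 against saline and from 0.0413 to 0.83 in the direct comparison.

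Markers of other cells moved with Bdnf in places. Endothelial markers, all 5 measured, summed to 974 to 1149 in ketamine arrays and to 1226 to 1406 in sleep-deprived arrays, with saline arrays at 1068 to 1155. Markers of inhibitory neurons, which include Vip, summed to 2257 to 2594 after ketamine, 2661 to 2697 after saline and 2468 to 2919 after sleep deprivation. All 5 had a lower mean log2 level after ketamine than after saline, against 54.6% of all genes and 73.5% of genes brighter than the median gene. After sleep deprivation 4 were lower than after saline and only Vip was higher, so as a set they did not follow Bdnf there. Oligodendrocyte markers had their highest sum, 5412, on ketamine array 2, which also had the lowest Bdnf. The other ketamine arrays summed to 3915 and 3088, and saline arrays to 3483.5 to 4312. The part of these cell markers in the differences of Bdnf was not tested. 

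Ntrk2, the receptor gene (probe set 17287901, chr13:58806472-59133970), ran in the same order of group means as Bdnf but within a narrow band. Its saline intensities were 2161, 2206 and 2393. Ketamine arrays read 2323, 2199.9 and 2137, and sleep-deprived arrays 2385, 2612 and 2422. The ketamine arrays lay within or just below the saline range, and all of them lay below the sleep-deprived arrays. The difference was -0.021 ± 0.09 for ketamine minus saline, 0.13 ± 0.09 for SD minus saline and -0.15 ± 0.09 for ketamine minus SD (adjusted p 0.58 in limma). Single probe set data do not separate the full-length receptor from its truncated forms.

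Akt1 (probe set 17284201, chr12:112653821-112674884) encodes the kinase that links the receptor to mTOR and GSK3. It read 732, 677 and 697 after saline, 707, 714 and 699 after ketamine, and 687, 714 and 629 after sleep deprivation. The groups overlapped in every comparison, and the differences were 0.01 ± 0.09, -0.053 ± 0.09 and 0.063 ± 0.09 respectively, for ketamine minus saline, SD minus saline and ketamine minus SD. Its level within the ketamine group was the tightest of all 9 genes, with a coefficient of variation of 1.05%.

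Gsk3b (probe set 17325560, chr16:38089001-38246084) encodes a kinase that AKT inhibits and that lithium, a mood stabiliser, also blocks. Its mean was lower than saline in both treated groups. Saline arrays read 2113, 2334 and 2199, ketamine arrays 1989.8, 2096 and 2044, and sleep-deprived arrays 2123, 1901 and 1877. No ketamine array reached the lowest saline array, whereas sleep-deprived array 1 lay inside the saline range. The differences from saline were -0.11 ± 0.09 after ketamine (interval -0.31 to 0.08) and -0.17 ± 0.09 after sleep deprivation (interval -0.37 to 0.024). Neither passed in limma, with adjusted p of 0.87 and 1.0. Both differences use the same 3 saline arrays.

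Mtor, the kinase at the centre of the pathway (probe set 17421600, chr4:148448582-148557685), showed no difference larger than its spread. Saline arrays read 629, 664 and 668, ketamine arrays 686, 627 and 612, and sleep-deprived arrays 659, 706 and 631. The lowest and the highest of these arrays belonged to ketamine and sleep deprivation, and all groups overlapped. Its differences were -0.026, 0.025 and -0.051, each ± 0.09, in the same order of comparisons as before. The 95% intervals reached no further than -0.25 and 0.22.

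The eIF4E-binding proteins, repressors of cap-dependent translation that mTOR inactivates, had means on opposite sides of saline. Eif4ebp1 (probe set 17500327, chr8:27260327-27275656) read 234, 209 and 245 after saline, 214, 212 and 224 after ketamine, and 226, 194 and 205 after sleep deprivation. Its differences from saline were -0.076 ± 0.10 after ketamine and -0.13 ± 0.10 after sleep deprivation. Eif4ebp2, the form prevalent in brain (probe set 17241228, chr10:61428491-61452790), read 208, 257 and 244 after saline, 254, 260.2 and 254 after ketamine, and 257, 273 and 239 after sleep deprivation.

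Saline array 1 lay below the other 8 arrays for Eif4ebp2, and the treated means exceeded saline by 0.12 ± 0.10 each. Without that array the differences were 0.033 after ketamine and 0.032 after sleep deprivation. Ketamine and sleep deprivation differed by 0.0012 ± 0.10 for Eif4ebp2, with an interval from -0.21 to 0.21, and by 0.056 ± 0.10 for Eif4ebp1. Neither gene passed the test in limma in any comparison.

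Eef2k and Eef2 form the elongation branch. Eef2k (probe set 17482560, chr7:120842642-120907219) read 234, 228 and 235 after saline, 266, 223 and 220.0 after ketamine, and 247, 271 and 216 after sleep deprivation. Saline arrays were close together, with a coefficient of variation of 1.54%, while those of the treated groups spread above and below them. Differences were 0.018, 0.063 and -0.045, each ± 0.11. Eef2, the substrate (probe set 17235566, chr10:81176631-81182509), read 3263, 2895 and 3164 after saline, 3345, 3084 and 3017 after ketamine, and 3024, 3219 and 3159 after sleep deprivation.

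The 3 groups overlapped for Eef2, and its differences of 0.019, 0.014 and 0.0056 (each ± 0.09) were the smallest range of group means among the 9 genes. The intervals bound any difference of Eef2 between -0.19 and 0.21 on the log2 scale. Those of Eef2k ran from -0.27 to 0.29. Changes inside these intervals cannot be told from no change with 3 arrays per group. The intervals are not a limit of detection, since Bdnf at -0.52 between ketamine and sleep deprivation did not pass either.

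**Figure D2:**
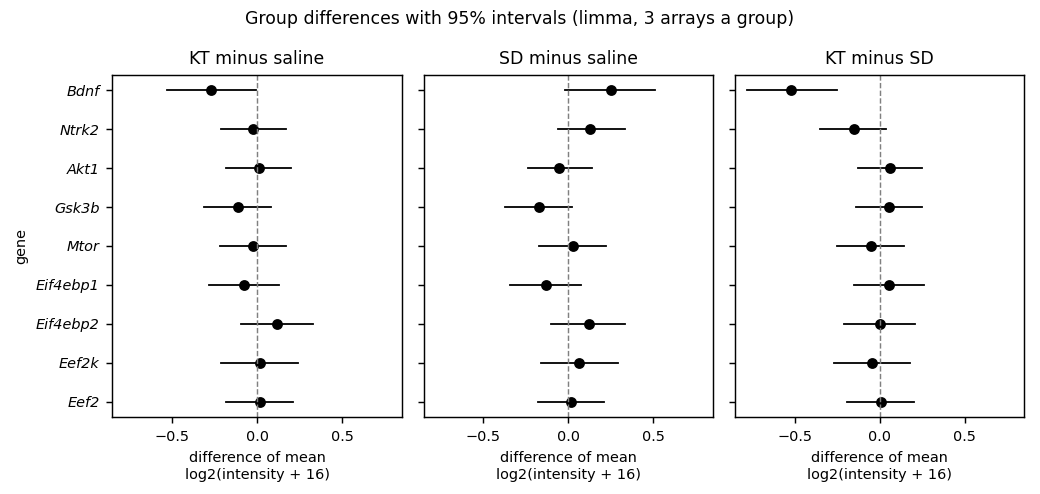
Differences of mean log2(intensity + 16) (x axis) for the 9 genes (y axis) in the 3 comparisons, with the point at the limma estimate and the line its 95% interval (n = 3 arrays per group). Only the intervals of Bdnf against saline and against sleep deprivation after ketamine (-0.53 to -0.0049 and -0.78 to -0.25) leave out 0.

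The 9 genes were also set beside all genes, as a description with no test. The median size of their difference, without regard to sign, was 0.026 between ketamine and saline, against 0.087 over all genes. Between sleep deprivation and saline it was 0.12 against 0.067, and between ketamine and sleep deprivation 0.056 against 0.10. Signed medians were -0.021, 0.025 and 0.0012, beside -0.015, -0.0088 and -0.012 over all genes. Arrays of the 2 groups did not overlap for 2 genes after ketamine against saline (Bdnf and Gsk3b; 14.4% of all genes), 0 after sleep deprivation against saline (7.11%) and 2 in the direct comparison (Bdnf and Ntrk2; 10.1%).

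The genes whose profile over the 9 arrays was nearest to that of Bdnf were Csrnp1, Vip, Dusp6, 1810037I17Rik and Wwc1. Nearness was the root mean square difference of log2 values centred per gene, which was 0.079, 0.087, 0.099, 0.10 and 0.10 for these and 0.27 for the median gene. Csrnp1 encodes a nuclear protein, Vip a neuropeptide of a class of inhibitory interneuron, and Dusp6 the phosphatase that inactivates ERK. Wwc1 encodes a scaffold protein also known as KIBRA. Vip read 730.1, 700.0 and 765 after saline, 657, 534 and 609 after ketamine, and 745, 911 and 751 after sleep deprivation. As for Bdnf, its lowest array was ketamine array 2 and its highest sleep-deprived array 2.

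**Figure D3:**
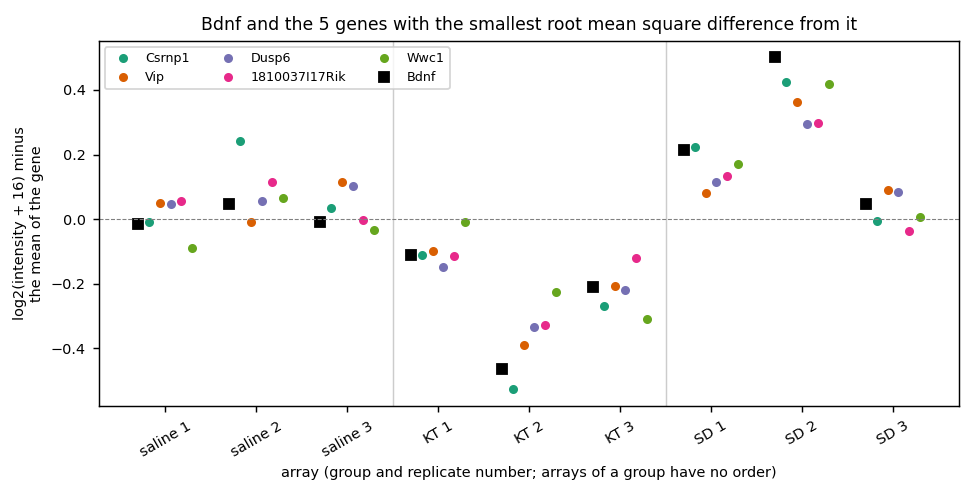
Centred log2(intensity + 16) (y axis) of Bdnf (black squares) and of the 5 genes with the smallest root mean square difference from it (coloured dots, 0.079 to 0.10) on each of the 9 arrays (x axis, grouped by treatment). All 6 genes are at their highest on sleep-deprived array 2, and the 5 were picked for likeness to Bdnf over these same arrays.

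Around the 9 genes, 177 others of the same pathways were listed in 11 groups, and 156 were measured. None passed over all genes in limma. At an unadjusted p under 0.05, 9 of the 156 were lower and 1 higher between ketamine and saline (2.35% and 2.21% of all genes), 1 lower and 5 higher between sleep deprivation and saline (1.72% and 1.8%), and 20 lower and 0 higher between ketamine and sleep deprivation (4.38% and 5.1%). Arrays did not overlap for 22 genes lower and 4 higher (7.89% and 6.48% of all genes), 5 and 12 (3.54% and 3.57%), and 27 and 1 (5.54% and 4.53%), in the same order. The mean log2 level was lower after ketamine than after saline for all 9 measured neurotrophins and receptors, Bdnf and Ntrk2 included, against 54.6% of all genes and 73.5% of the brighter ones. For Sorcs2 this difference was only -0.0013, and that of Ntrk2 was 0.0027 after quantile normalization. Among neurotrophins and their receptors, Sorcs3, a sorting receptor of the sortilin family, stood higher after sleep deprivation. It read 539, 544 and 586 after saline, 537, 529 and 505 after ketamine and 781, 807 and 660.4 after sleep deprivation. The sleep-deprived arrays lay above all 6 others, at 0.42 ± 0.10 over saline (adjusted p 0.924 in limma), and ketamine stood at -0.50 ± 0.10 against them (adjusted p 0.242 in limma). Ngfr, which encodes the p75 neurotrophin receptor, was at -0.17 ± 0.10 after ketamine and -0.19 ± 0.10 after sleep deprivation.

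Of 10 measured genes that package and process BDNF and other secreted peptides, 7 had a lower mean than saline after ketamine and 6 after sleep deprivation. Of all genes, 54.6% and 53.4% were lower in these comparisons, and of the brighter ones 73.5% and 50.2%. Pcsk1, the prohormone convertase, read 684, 732 and 682 after saline, 609.7, 503 and 495 after ketamine and 675, 781 and 700.0 after sleep deprivation. It was at -0.38 ± 0.10 after ketamine and 0.036 ± 0.10 after sleep deprivation, and the ketamine arrays lay below all the others. Scg2, a granin of dense-core vesicles, read 869, 864 and 874 after saline, 876, 764 and 772 after ketamine, and 1060.0, 1229 and 1132 after sleep deprivation. The sleep-deprived arrays were all above the rest, at 0.38 ± 0.09 over saline (adjusted p 0.958 in limma). Furin, the protease that cleaves proBDNF, was at -0.23 ± 0.10 between ketamine and sleep deprivation.

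Downstream of the receptor, Irs2, an adaptor that couples receptors to PI3 kinase, was at -0.26 ± 0.10 after ketamine, 0.18 ± 0.10 after sleep deprivation and -0.44 ± 0.10 between them. Its ketamine arrays read 473, 477 and 479, below the saline range of 548 to 608 and the sleep-deprived range of 569 to 707. Of 18 measured adaptor genes, 1 was lower at an unadjusted p under 0.05 between ketamine and saline and 1 between ketamine and sleep deprivation, Irs2 both times (2.35% and 4.38% of all genes). Of 15 PI3 kinase and AKT genes none reached that mark against saline, and 1 did in the direct comparison (Inpp5d, a lipid phosphatase, -0.27 ± 0.10). None of the 11 genes of the mTOR complexes did in any comparison.

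Among 28 upstream regulators of mTOR, Ddit4l, an inhibitor of mTOR signalling, was at -0.41 ± 0.14 after ketamine, where it was the only one with an unadjusted p under 0.05. Of all genes, 2.35% were lower at that p in the same comparison. In the direct comparison 3 of the 28 were lower at that p, against 4.38% of all genes, namely Stk11 (-0.29 ± 0.12), the kinase upstream of AMPK, Ddit4 (-0.34 ± 0.15) and Lamtor1 (-0.23 ± 0.11), a lysosomal anchor of mTOR signalling. Rps6kb2, the paralogue of the S6 kinase gene that had no probe set, was measured and lay at 0.0081 ± 0.10 after ketamine and 0.13 ± 0.10 after sleep deprivation. Among 16 outputs of mTOR in translation, Eif4a1, an RNA helicase of initiation, was the only gene to reach that mark, at -0.35 ± 0.14 between ketamine and sleep deprivation. In the elongation list of 18 genes it was Prkag2, an AMPK subunit, at 0.23 ± 0.10 after sleep deprivation. The 14 measured genes of GSK3 and beta-catenin had none. Of all genes, 4.38% were lower at that p in the comparison of Eif4a1 and 1.8% higher in that of Prkag2. In the ERK arm, with 11 genes measured, Rps6ka3, a kinase downstream of ERK, was at -0.26 ± 0.11 after ketamine and -0.25 ± 0.11 against sleep deprivation. It alone of that list reached an unadjusted p under 0.05 in these comparisons, where 2.35% and 4.38% of all genes were lower.

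A general lowering of bright probe sets after ketamine went along with these lists. Of the 156 genes, 111 (71.2%) had a lower mean after ketamine than after saline, with a median of -0.056, where 54.6% of all genes and 73.5% of the genes brighter than the median gene were lower. Between ketamine and sleep deprivation 127 of 156 (81.4%) were lower, with a median of -0.08, against 53.0% of all genes and 72.5% of the brighter ones. After quantile normalization, which gives all arrays the same distribution, the counts were 81 (51.9%) and 93 (59.6%). Between sleep deprivation and saline 65 of the 156 were lower (53.4% of all genes and 50.2% of the brighter ones) and 91 higher, 115 higher without sleep-deprived array 3 and 67 higher without sleep-deprived array 2.

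The difference of Bdnf, in contrast, was -0.29 after ketamine and -0.50 against sleep deprivation once arrays were quantile normalized. Under that scaling Ntrk2 was at 0.0027, Mtor at 0.04, Eef2k at 0.082 and Akt1 at 0.074 after ketamine, so that the signs of Ntrk2 and Mtor turned against saline. Those of Mtor (0.031) and Eef2k (0.032) turned between ketamine and sleep deprivation, and that of Eef2 (-0.012) between sleep deprivation and saline. None of these values passed in limma after adjustment.

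Genes known to be induced by BDNF or by neuronal activity had lower means after ketamine than in either other group. Of 16 measured, 14 were lower than after saline (median -0.17) and 15 lower than after sleep deprivation (median -0.26), against 54.6% and 53.0% of all genes and 73.5% and 72.5% of the brighter ones. After quantile normalization 14 and 13 were lower. Without ketamine array 3 the count against saline was 10. At an unadjusted p under 0.05, 6 were lower and 1 (Sst, a neuropeptide of interneurons, 0.23 ± 0.10, named after its value was seen) was higher against saline (2.35% and 2.21% of all genes), and 10 were lower against sleep deprivation (4.38%). These counts are descriptions of a list drawn up with earlier results of these data known.

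Of Arc, Homer1, Fos, Nptx2 and Vgf, products of active neurons, only Fos departed from the order of group means of Bdnf. That order was sleep deprivation, saline and ketamine, from highest to lowest, and for Fos saline came first. For Arc, Vgf and Fos a step of the order was smaller than its SE. Vgf, a neuropeptide precursor, read 623, 578 and 654 after saline, 614, 630.1 and 511 after ketamine and 871, 895 and 777 after sleep deprivation. Its sleep-deprived arrays lay above the rest, at 0.44 ± 0.10 over saline, while ketamine stood at -0.082 ± 0.10. Fos read 803, 801 and 721 after saline, 559, 535 and 629 after ketamine, and 600.4, 629 and 540.0 after sleep deprivation, so that both treated groups lay below saline without overlap. Its direct difference between ketamine and sleep deprivation was -0.038 ± 0.10.

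Homer1, a postsynaptic scaffold gene, had its lowest arrays after ketamine, at 1095, 919 and 899.6, against 1232, 1399.5 and 1140 after saline and 1453, 1550.1 and 1363 after sleep deprivation. Ketamine arrays lay below all others, as for Bdnf. Nptx2, a secreted synaptic pentraxin, read 209.5, 204 and 258 after saline, 193, 197 and 194 after ketamine and 316, 407 and 310.3 after sleep deprivation. Arc was at -0.32 ± 0.12 after ketamine and 0.03 ± 0.12 after sleep deprivation.

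**Figure D4:**
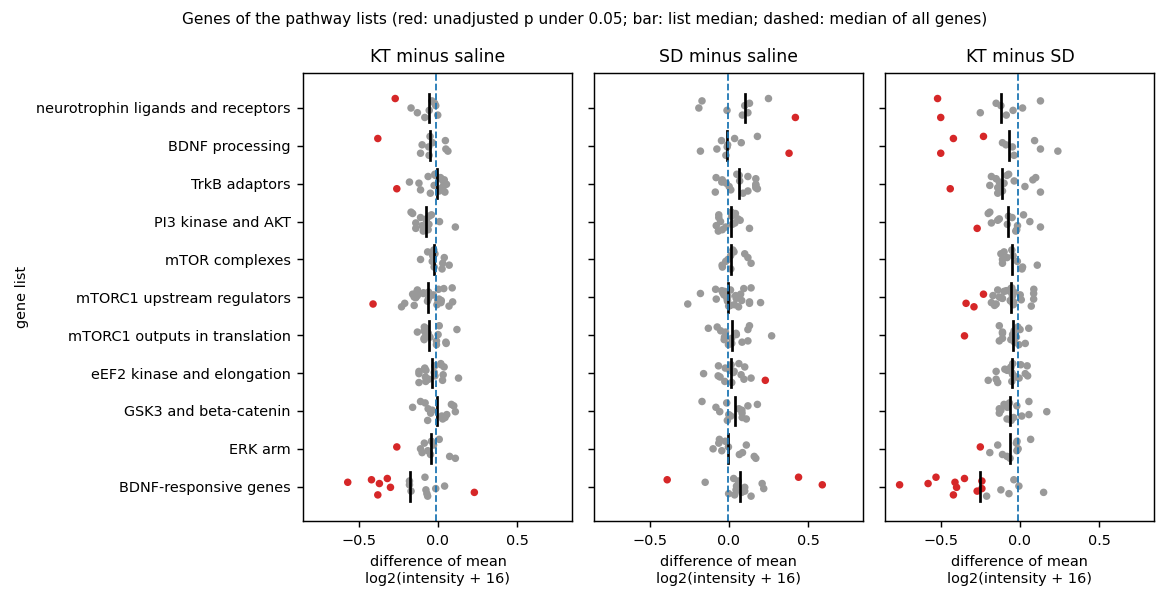
Differences of mean log2(intensity + 16) (x axis) of the measured genes in 11 pathway lists (y axis; the 9 genes are among them) in the 3 comparisons. Dots are genes, red at an unadjusted p under 0.05 in limma, black bars the list medians and dashed lines the median of all genes; the median of genes known to be induced by BDNF lies at -0.17, 0.07 and -0.26.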

How the data were processed

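RNA from microdissected anterior cingulate cortex of 9 mice was measured on 9 arrays. Affymetrix Expression Console 1.1.1 with PLIER 2.0 is named for the deposited values, per the submitters' processing notes. The deposited values are linear intensities, 1 per probe set and array, for 41345 probe sets. How the authors corrected background and normalized is not given in the sources used here. A single gene symbol was attached to 23521 of them, several symbols to 1814 and no symbol to 16010. Symbols were updated by gene identifier to RefSeq (23328 matched), and the brightest of several probe sets stood for 1082 genes.

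Log2(intensity + 16) of all 9 arrays entered 1 limma fit (version 3.58.1, R 4.3.3, moderated by eBayes) with 6 residual degrees of freedom. The fit was tested on simulated data. Precision is limited by the number of arrays, 3 per group. No pair of arrays was identical (0 pairs).

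The 10 genes and the pathway lists were chosen with earlier results of these data known. Named were all 9 measured genes, up to 3 further genes per list and comparison with the smallest unadjusted p, 5 fixed activity genes (Vgf, Arc, Homer1, Fos, Nptx2) and the 5 genes nearest to Bdnf. Marker lists were neuron, excitatory neuron, inhibitory neuron, astrocyte, oligodendrocyte and its precursor, microglia, endothelium, mural cells, choroid plexus with ependyma, meninges, striatum and blood. Alternatives covered offsets, normalization, a filter on dim genes, probe set choice, limma-trend, array weights, 2-group fits, a replicate block and leaving out each array.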

Additional observations from a re-analysis of the deposited data

Results flagged for a closer look

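Among 169 genes searched (the 9 genes, the other measured pathway genes and the 5 genes nearest to Bdnf), 13 (7.69%) had all ketamine arrays on one side of the saline mean and all sleep-deprived arrays on the other, against 2.28% of all 22180 genes. For 12 of them the ketamine arrays lay below and the sleep-deprived arrays above, as for 300 of the 505 such genes among all genes. Of the genes brighter than the median gene, 72.5% had a lower mean after ketamine than after sleep deprivation. The difference between ketamine and sleep deprivation was -0.52 for Bdnf, -0.76 for Nptx2, -0.58 for Homer1, -0.50 for Sorcs3, -0.41 for Vip and -0.40 for Dusp6. It was smaller for Spry2 (-0.27), Egr1 (-0.24), Shc3 (-0.18), Ptpn11 (-0.14), Eif4g2 (-0.11) and Shc1 (-0.07). Prr5l, at 0.11, ran the other way. None of these differences passed in limma over all genes, with adjusted p from 0.172 (Nptx2) to 0.778 (Shc1). Vip and Dusp6 were picked for likeness to Bdnf over these same arrays. The pathway lists were drawn up with earlier results of these data known, so the shares above are a description and not a test. Relative to the saline mean, Bdnf stood at -0.12, -0.47 and -0.22 on the ketamine arrays and at 0.21, 0.49 and 0.04 on the sleep-deprived arrays.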

How the results depend on the processing

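With 0 genes called in each comparison of the limma fit, some settings called a few. Between ketamine and sleep deprivation an offset of 64 called 14, a filter on the dimmest genes 5, limma-trend 15 and array weights 42. Between sleep deprivation and saline median centring called 1 and limma-trend 3, and between ketamine and saline array weights called 1439. Leaving out each array in turn called 0 between ketamine and saline, 0 to 4 between sleep deprivation and saline and 0 to 214 between ketamine and sleep deprivation, the highest without sleep-deprived array 3. The cause was not tested. Over 459 values of the 9 genes under these alternatives, 430 kept their sign, and the 29 that changed it were of differences smaller than their SE. Only Bdnf passed at adjusted p under 0.05, in 3 of them. The 6 added list counts, chosen after seeing the data, are given with the lists. Replicate numbers are shared between groups, but same-numbered arrays did not deviate together throughout (correlations across genes from -0.201 to 0.444). With a replicate block limma called 0 genes in each comparison, and Bdnf was at -0.52 with adjusted p 0.23 between ketamine and sleep deprivation.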

Other observations

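Arrays of different groups shared deviations from their group means across genes. Ketamine array 1 and sleep-deprived array 2 correlated at 0.536, ketamine array 3 and sleep-deprived array 3 at 0.444, and ketamine array 3 and sleep-deprived array 2 at -0.514. Of the 9 genes, 5 (Bdnf, Ntrk2, Mtor, Eef2k and Eef2) had their highest value of the ketamine group on ketamine array 1 and their highest value of the sleep-deprived group on sleep-deprived array 2. The share of all genes with this pattern was not counted, so whether it is particular to these 5 cannot be said. The correlations above are over all genes. For Eef2k these arrays stood at 0.18 and 0.21 relative to the saline mean, while the other ketamine arrays stood at -0.05 and -0.07. Meningeal markers summed to 860.2 to 951 in ketamine arrays and 958 to 1111 in saline arrays, without overlap.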
